A study of Mus musculus with 163 samples.

Results

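Maternal mRNA storage, translation and decay were followed through 10 of the 21950 genes in the deposited table, across single mouse oocytes of 7 groups. They were chosen by symbol for their known roles: Cpeb1, Dazl, Ybx2 and Zar1 bind or store transcripts, Eif4e1b and Pabpc1l act at the cap and the poly(A) tail, and Zfp36l2, Btg4, Cnot7 and Cnot6l act in deadenylation and decay. All 10 were found, and all 10 passed the filter on low values in each comparison (more than 1 CPM, that is 1 read in 1e6 counted, in at least 3 oocytes). Growing oocytes (GROs) and fully grown oocytes (FGOs) were each measured by Smart-seq2 on 1 oocyte at a time, 71 GROs and 92 FGOs in all. The iPSC-derived oocytes (23 GROs and 24 FGOs) started from 1 female mouse induced pluripotent stem cell line, BVSC-iPSC, with Blimp1-Venus and Stella-ECFP reporters. Its primordial germ cell-like cells were aggregated with gonadal somatic cells of E12.5 embryos of another stock, Swiss Webster, into reconstituted ovaries. The gonad-derived oocytes (24 GROs and 24 FGOs) started from germ cells of dissociated E12.5 female gonads and passed cultures of the same kind, with a final follicle culture that the study's methods give as shorter than that of the iPSC-derived follicles. The 6 dpp FGOs (24) entered culture inside follicles of ovaries at 6 days post partum, and the in vivo oocytes (24 GROs and 20 FGOs) were never cultured for growth. Each oocyte was stripped of follicle cells and zona before it was lysed. The labels name no strain for the oocytes and no animal, embryo or culture behind any of them.

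A growing oocyte makes the transcripts that will later serve it when transcription is silent, and it keeps many of them with short poly(A) tails and untranslated. CPEB1 binds the cytoplasmic polyadenylation element (CPE) in 3′ untranslated regions and recruits both repressors and poly(A) polymerase, and DAZL binds other 3′ sites and supports translation of a part of the same store. During meiotic maturation BTG4 brings the CCR4-NOT deadenylase, whose catalytic subunits include CNOT7 and CNOT6L, to maternal transcripts, and removal of the tail starts their decay.

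The members lie on 8 chromosomes of GRCm38 (RefSeq coordinates of GRCm38.p6). Those that bind or store transcripts are Cpeb1 (chr7:81347026-81458001), Dazl (chr17:50279393-50293620), Ybx2 (chr11:69935805-69941604) and Zar1 (chr5:72577113-72581361). Eif4e1b lies at chr13:54783994-54788459 and Pabpc1l at chr2:164024770-164050538. The decay genes are Zfp36l2 (chr17:84183924-84187947), Btg4 (chr9:51102147-51119924), Cnot7 (chr8:40492538-40515847) and Cnot6l (chr5:96070333-96164198). The span of Cnot7 overlaps that of Vps37a, which had pooled values from 43.5 to 74.0 CPM over the groups and was lower in each FGO group than in each GRO group. Smart-seq2 does not keep the strand, so reads in shared exons cannot be assigned to one of the pair with certainty.

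The 3′ ends of the members were searched for the motif bound by CPEB1, since 1 member encodes that protein and the others include mRNAs stored in the oocyte. In the last 150 bases of the 3′ untranslated region of the longest complete coding transcript in GENCODE M21, the CPE letters TTTTAT or TTTTAAT (transcript strand only, overlapping matches counted) were present in 3 of the 10 members and in 22.4% of 18270 genes of the table. The members with them were Cnot7 (3 matches), Btg4 (2) and Ybx2 (1). At least 2 matches stood in 2 members, against 4.37% of all genes. A poly(A) signal, AATAAA or ATTAAA, began within the last 50 bases in 8 of 10 members and in 75.7% of all genes. For each of the 3, the 30 bases from a match on are shown because these are the members that hold the motif, with the matched letters in capitals.
Cnot7: TTTTATTTTATaaacatatttatgatgttc
Btg4: TTTTATgtctttttaaaagtttgatttaca
Ybx2: TTTTATgaactgtcatgtgccacctgagcc
The Cnot7 stretch lies in its last exon's untranslated region on the minus strand at chr8:40493119-40493148 and holds 2 overlapping matches, 113 and 108 bases from the transcript's end. A further match began 20 bases from the end, just before an AATAAA 11 bases from it. The Btg4 stretch (chr9:51119809-51119838, plus strand) starts at 1 of its 2 matches, which begin 116 and 67 bases from the end. The Ybx2 stretch (chr11:69941544-69941573, plus strand) begins 62 bases from the end. By these coordinates, the GENCODE ends searched for Cnot7 and Btg4 lie short of their RefSeq ends (chr8:40492538 and chr9:51119924). Their matches are therefore counted from an end inside the RefSeq span, and the count of members with at least 2 matches rests on these ends. A match is a run of letters in the annotated end, which need not be the end used in oocytes, and the tail lengths were not measured.

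Total counts per oocyte ranged from 2.17 to 13.7 M (1 M is 1e6 reads), with group medians between 6.66 and 7.16 M. Summed counts of a group were divided by its summed library to give a pooled CPM, with an exact Poisson 95% interval that covers counting error only. Groups were compared by a log2 ratio of their pooled CPM, each raised by 0.5 CPM, which understates differences of genes of low level. A gene is called apart where this ratio reaches 2-fold in either direction. Since no label ties oocytes to animals or cultures, each group was 1 sample, no comparison had a replicate check, and no test is given. The lowest, median and highest oocyte describe the spread between oocytes. CPM is a share of the counted transcripts, and amounts per oocyte were not measured. The 11 oocyte markers in the table summed to between 21442 and 53020 CPM in each oocyte, and their median sum was lower in FGOs than in GROs: 24370 against 43900 CPM in iPSC-derived, 27773 against 42919 CPM in gonad-derived and 37897 against 46022 CPM in in vivo oocytes. The 12 granulosa cell markers in the table summed to between 19.3 and 157 CPM in the 3 GRO groups and in iPSC- and gonad-derived FGOs, and reached 1627 CPM in 6 dpp FGO 12 and 415 CPM in in vivo FGO 19. Their median sum was higher in FGOs: 88.9 against 54.7, 116 against 54.6 and 119 against 52.5 CPM in the same order. Much of that rise was Cyp19a1 alone, with pooled values of 61.9 against 20.1, 77.2 against 19.1 and 64.1 against 8.87 CPM. Not every marker moved with its sum. Kitl was lower in iPSC-derived FGOs (5.36 against 8.56 CPM), and the oocyte marker Bmp15 was higher in FGOs of each source. The sums are therefore no measure of follicle cell RNA by stage, and their part in the stage comparisons below was not tested.

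A total of 3 sets of oocytes that stood apart from their groups are followed through the members. In vivo GROs numbered 17 to 24 differed from in vivo GROs 1 to 16: the values of 838 of 12447 genes (6.73%) did not overlap between both sets, while the same division of numbers gave 0 such genes in 4 of the other 6 groups, 8 in gonad-derived FGOs and 1 in in vivo FGOs. This division was drawn after the values were seen. The labels do not say what these 8 oocytes share. Oocytes were lysed in strips of 8 tubes, but no label gives the strip of an oocyte, and its part was not tested. Their median total of 6.82 M was close to the 6.87 M of the others, and summed granulosa markers ran from 19.3 to 91.6 CPM in them and from 32.3 to 66.2 CPM in the others. Gonad-derived FGO 19 lay at least 2-fold outside the range of the other 23 oocytes of its group for 2390 of 12368 genes, where the next oocyte did so for 145. In vivo FGOs 5, 7, 19 and 22, which an earlier analysis of these data had scored as like GROs, had the 4 lowest Cnot7 values of their group. Since that score came from the same data, leaving these 4 out can widen a stage ratio by the choice alone. Neither their low Cnot7 nor the wider ratios without them are separate evidence. The ratios that turn on them are given both ways below.

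**Figure D1:**
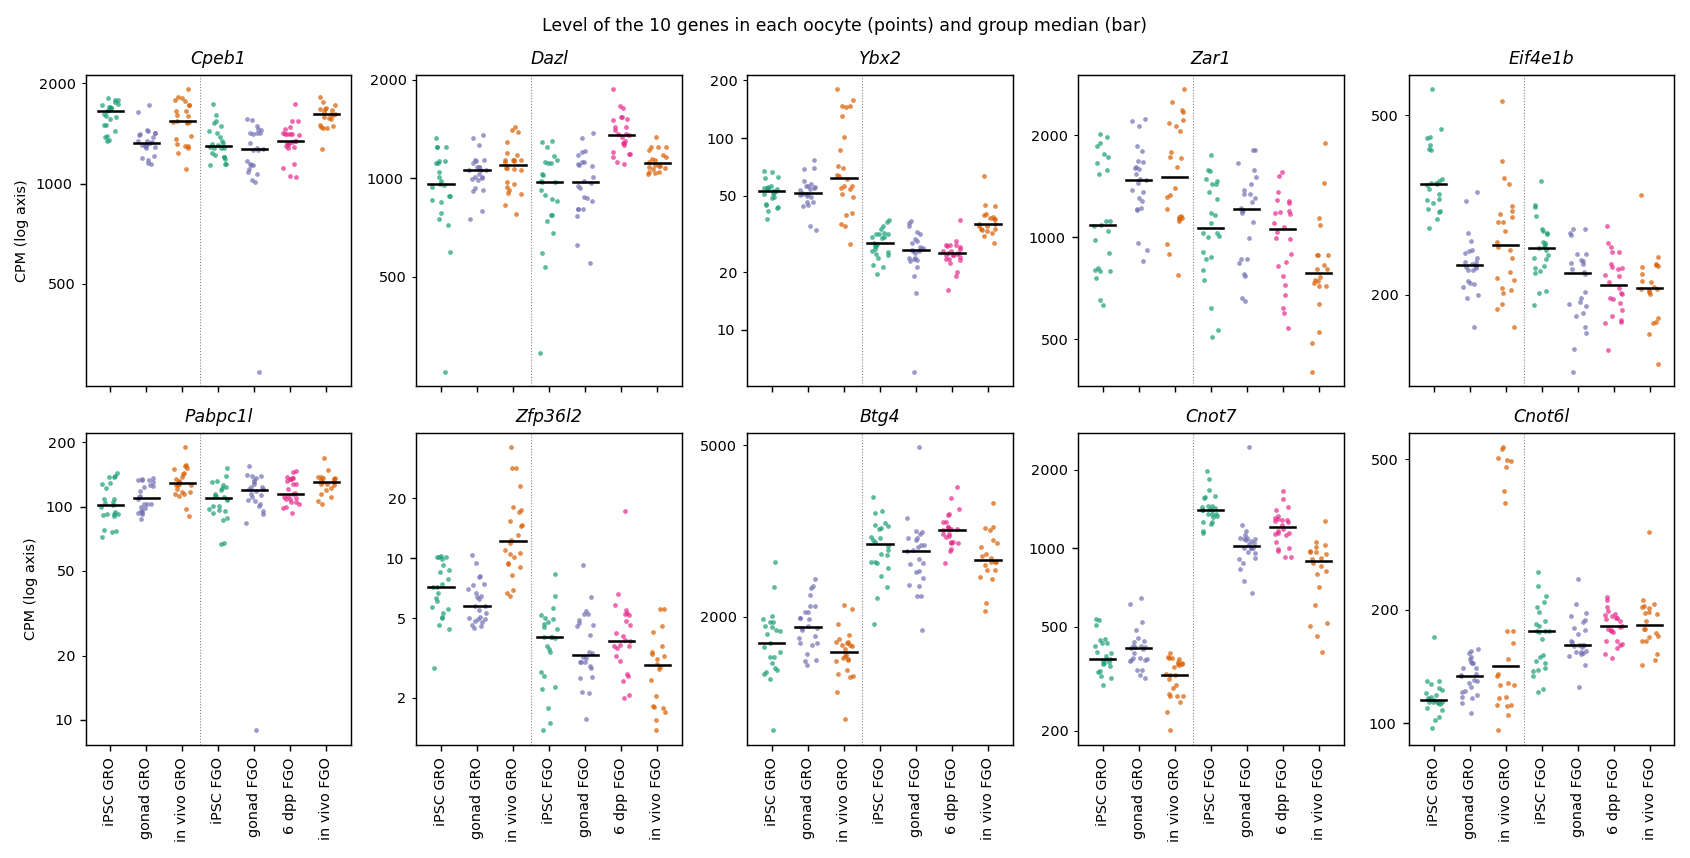
CPM of each of the 10 genes (log axis, scaled per gene) in every oocyte, by group, with GROs to the left and FGOs to the right of the dotted line; bars mark the group median. In the 3 sources with both stages, the Cnot7 values of all FGOs lie above those of the GROs, and Cnot6l and Ybx2 show an upper cloud in in vivo GROs.

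The members spanned a wide range of levels. Per exonic length (TPM, the length-scaled share of transcripts, from pooled reads and the deposited length), the order in in vivo FGOs was Btg4 (4139 TPM), Zar1 (1377), Cpeb1 (1012), Dazl (757), Cnot7 (660), Pabpc1l (353), Eif4e1b (240), Ybx2 (106), Cnot6l (47.0) and Zfp36l2 (1.90). In in vivo GROs Zar1 (2567 TPM) and Btg4 (2491) led, and Zfp36l2 (9.10) was again last. The authors counted 1 transcript picked at random per gene, and the counted lengths of Ybx2 (803 bases) and Pabpc1l (830) were short, so the places of these genes in the order are less certain than their differences between groups. When the 7 groups were ordered by pooled CPM, the oocyte ranges of neighbouring groups overlapped for every member. The highest group was 4.79-fold above the lowest for Zfp36l2, 4.42-fold for Cnot7, 3.19-fold for Ybx2 and 2.09-fold for Cnot6l, and between 1.26-fold (Pabpc1l) and 1.93-fold (Btg4) for the other 6. In vivo GROs were the highest group for Zfp36l2, Ybx2 and Cnot6l and the lowest for Cnot7. Each of these spans was narrower without in vivo GROs 17 to 24. The pooled in vivo GRO value was then 10.9 CPM for Zfp36l2, 52.1 for Ybx2, 130 for Cnot6l and 353 for Cnot7. In vivo FGOs (188 CPM) were then highest for Cnot6l, less than 2-fold above the lowest group, iPSC-derived GROs (118 CPM).

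Growth from GRO to FGO was compared within each source that had both stages. Cnot7, which encodes a catalytic deadenylase of CCR4-NOT, was the only member called apart in all 3 sources, and it was higher in FGOs. Its other partners in decay differed: Btg4, the adaptor, was higher by less than 2-fold, and Zfp36l2, which binds AU-rich elements and recruits CCR4-NOT, was lower. In vivo, 3 of 10 members were called apart (Cnot7 higher, Zfp36l2 and Ybx2 lower), where 23.7% of 13148 genes were. That count was 2 without in vivo GROs 17 to 24, where Ybx2 fell short (22.4% of genes), and 4 without in vivo FGOs 5, 7, 19 and 22, where Zar1 was also called lower and the share of all genes was 28.3%. In iPSC-derived oocytes 1 of 10 was (22.0% of all genes), and in gonad-derived oocytes 1 of 10 (15.8%). The median ratio over the 10 members was -0.20 in vivo, -0.11 in iPSC-derived and -0.12 in gonad-derived oocytes, beside -0.11, -0.11 and -0.05 over all genes.

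Cnot7 ran from 200 to 396 CPM in in vivo GROs (median 328) and from 401 to 1274 CPM in in vivo FGOs (median 892). In iPSC-derived oocytes it ran from 300 to 533 CPM in GROs (median 377) and from 1146 to 1970 CPM in FGOs (median 1399). In gonad-derived oocytes it ran from 318 to 643 CPM in GROs (median 413) and from 675 to 2440 CPM in FGOs (median 1023). In each source every FGO was therefore above every GRO, although in vivo the margin was narrow and in vivo FGO 7 set it. The pooled value was 323 CPM (95% interval 320 to 326) in in vivo GROs and 824 CPM (819 to 828) in in vivo FGOs, a ratio of 1.35. The ratio was 1.85 in iPSC-derived and 1.33 in gonad-derived oocytes. Without in vivo FGOs 5, 7, 19 and 22, which had 504, 401, 517 and 462 CPM, the in vivo ratio was 1.51. Without in vivo GROs 17 to 24 it was 1.22, and without gonad-derived FGO 19, the highest, the gonad-derived ratio was 1.24. Ranges of FGOs and GROs did not overlap for 2 members in vivo (3.45% of all genes), 2 in iPSC-derived (8.01%) and 1 in gonad-derived oocytes (3.98%).

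Btg4 was higher in FGOs of each source without reaching 2-fold. In vivo it ran from 1159 to 2126 CPM in GROs (median 1659) and from 2067 to 3669 CPM in FGOs (median 2714), and 19 of 20 FGOs lay above all GROs. In iPSC-derived oocytes the ranges were 1090 to 2687 CPM (median 1741) and 1924 to 3791 CPM (median 2956), with 16 of 24 FGOs above all GROs. In gonad-derived oocytes they were 1545 to 2448 CPM (median 1893) and 1867 to 4947 CPM (median 2847), with 19 of 24 above. The ranges overlapped in each source, by the fewest oocytes in vivo. The ratios were 0.73, 0.72 and 0.55. The highest value, in gonad-derived FGO 19, stood well above the next of its group (3390 CPM), and the ratio without it was 0.50.

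Cnot6l, the partner deadenylase that belongs to another enzyme class than CNOT7, depended on the set of in vivo GROs. It ran from 382 to 538 CPM (median 496) in in vivo GROs 17 to 24 and from 95.7 to 176 CPM (median 126) in GROs 1 to 16, and the sets did not overlap. In vivo FGOs ran from 143 to 321 CPM (median 182), where FGO 16 was highest and the next had 213 CPM. The in vivo ratio was -0.39 with all GROs and 0.53 without GROs 17 to 24. The cultured oocytes gave 0.53 (iPSC-derived, GROs 97.2 to 169 and FGOs 121 to 252 CPM) and 0.33 (gonad-derived, GROs 106 to 157 and FGOs 125 to 241 CPM). Thus the direction in vivo turned with these 8 oocytes, and no ratio reached 2-fold. What sets them apart was not tested.

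Zfp36l2 was a transcript of low level that was lower in FGOs. It ran from 6.45 to 36.2 CPM in in vivo GROs (median 12.2) and from 1.38 to 5.57 CPM in in vivo FGOs (median 2.92), so that each FGO lay below each GRO. The ratio was -2.09, and -1.69 without GROs 17 to 24. In cultured oocytes the ranges overlapped. They were 2.82 to 10.3 and 1.37 to 8.33 CPM in iPSC-derived GROs and FGOs (ratio -0.80), and 4.47 to 10.4 and 1.57 to 9.29 CPM in gonad-derived GROs and FGOs (ratio -0.64). Pooled in vivo values rested on 2348 reads in GROs and 439 reads in FGOs.

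Ybx2, a Y-box protein that packages stored mRNA, was lower in FGOs, and its in vivo call rested on GROs 17 to 24. It ran from 86.9 to 181 CPM (median 146) in those 8 oocytes, from 28.2 to 71.6 CPM (median 54.6) in GROs 1 to 16 and from 28.3 to 63.3 CPM (median 35.7) in in vivo FGOs. The highest of these FGOs was FGO 16, and the next had 44.7 CPM. The ratio was -1.07 with all GROs and -0.46 without the 8. In iPSC-derived oocytes every FGO (19.7 to 37.3 CPM, median 28.3) was below every GRO (37.9 to 67.2 CPM, median 52.7), with a ratio of -0.87. In gonad-derived oocytes 21 of 24 FGOs (6.04 to 37.0 CPM) were below all GROs (33.3 to 77.0 CPM, median 51.5). With 0.5 CPM added to each pooled value, gonad-derived FGOs were 1.99-fold lower, just short of the 2-fold rule. The ratio was -0.95 without gonad-derived FGO 19.

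Zar1, an RNA-binding protein needed for the oocyte-to-embryo transition, varied widely within every group. In vivo GROs ran from 776 to 2748 CPM (median 1510) and in vivo FGOs from 401 to 1905 CPM (median 783), with 10 of 20 FGOs below all GROs. The ratio was -0.90, and -1.13, past 2-fold, without in vivo FGOs 5, 7, 19 and 22, where FGO 5 was the highest at 1905 CPM and FGO 19 had 1449 CPM. In iPSC-derived oocytes the ratio was -0.15 (GROs 633 to 2013 CPM, FGOs 508 to 1746 CPM), and in gonad-derived oocytes -0.33 (GROs 851 to 2232 CPM, FGOs 650 to 1815 CPM). The ranges overlapped over most of their length in both.

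Cpeb1, Dazl and the poly(A)-binding protein gene Pabpc1l had ratios between -0.27 and 0.06 between stages. The Cpeb1 ratios were 0.05 in vivo, -0.27 in iPSC-derived and -0.13 in gonad-derived oocytes, and 15 of 24 iPSC-derived and 9 of 24 gonad-derived FGOs lay below all GROs of their source. Of the Cpeb1 values, 1109 to 1390 CPM in in vivo GROs 17 to 24 lay below the 1517 to 1928 CPM of GROs 1 to 16 with no overlap. The Dazl ratios were 0.06, -0.07 and -0.11, and those of Pabpc1l were -0.02, 0.06 and 0.03. A few of these turned sign with the setting: Cpeb1 in vivo was -0.07 without GROs 17 to 24, Dazl in iPSC-derived oocytes 0.04 with TMM scaling, and Pabpc1l in vivo 0.04 with TMM scaling. Eif4e1b, the oocyte form of the cap-binding protein eIF4E, had ratios of -0.38, -0.52 and -0.14, and 20 of 24 iPSC-derived FGOs lay below all iPSC-derived GROs. Gonad-derived FGO 19 had the lowest Cpeb1 (271 CPM, next 1007) and Pabpc1l (8.91 CPM, next 83.5) of its group, and without it the gonad-derived ratios were -0.08 for Cpeb1 and 0.09 for Pabpc1l.

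**Figure D2:**
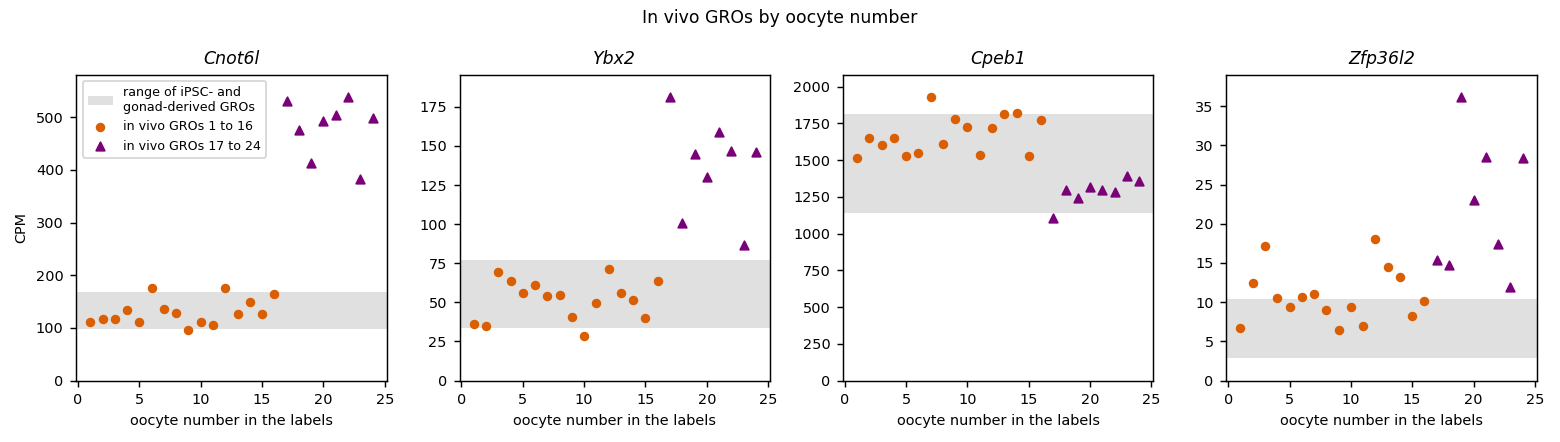
CPM of Cnot6l, Ybx2, Cpeb1 and Zfp36l2 in in vivo GROs by oocyte number; the grey band is the range over iPSC- and gonad-derived GROs. For Cnot6l and Ybx2 the oocytes numbered 17 to 24 (triangles) lie above all other in vivo GROs and above the band, Cpeb1 is lower in them, and Zfp36l2 overlaps.

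The culture steps before growth were read in GROs. iPSC-derived and gonad-derived GROs, which differ by the source of the germ cells, had 0 of 10 members called apart, where 3.83% of 13029 genes were. The largest ratio was that of Eif4e1b at 0.64: it ran from 281 to 573 CPM in iPSC-derived GROs (median 352) and from 170 to 338 CPM in gonad-derived GROs (median 233). Of the 23 iPSC-derived GROs, 14 were above all gonad-derived ones. Zar1 followed with -0.26 and Cpeb1 with 0.25, and both overlapped in most oocytes. Dazl had a ratio of -0.11, and iPSC-derived GRO 18 had 256 CPM where the next lowest of its group had 595.

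Gonad-derived against in vivo GROs, which differ by in vitro differentiation, had 1 of 10 members called apart (7.04% of 13059 genes), and iPSC-derived against in vivo GROs also 1 of 10 (9.99% of 13136 genes). Both comparisons share the in vivo GROs. The study describes its cultured GROs as larger than its in vivo GROs. For certain clusters of genes that rise with growth, it reports that higher levels in cultured GROs were also seen at matched size. Whether this holds for the members was not tested. Since diameters were not used here, size and culture cannot be told apart in these comparisons. Zfp36l2 had a ratio of -1.15 against gonad-derived and -0.96 against iPSC-derived GROs, that is lower in culture, and 15 of 24 gonad-derived and 10 of 23 iPSC-derived GROs lay below all in vivo GROs. Cnot6l had -0.88 and -1.06, and Ybx2 -0.60 and -0.59. Without in vivo GROs 17 to 24 the ratios were -0.75 and -0.56 for Zfp36l2, 0.03 and -0.14 for Cnot6l, and 0.01 and 0.02 for Ybx2. No member was called apart in either comparison then, beside 6.12% and 8.93% of genes. Cnot7 had ratios of 0.37 and 0.29 (0.24 and 0.17 without the 8 oocytes), and 14 of 24 gonad-derived GROs exceeded the highest in vivo GRO at 396 CPM.

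In FGOs none of the 4 comparisons had a member called apart. The shares of all genes called apart were 6.21% for iPSC-derived against gonad-derived FGOs, 2.59% for gonad-derived against 6 dpp FGOs, 4.38% for 6 dpp against in vivo FGOs and 14.5% for iPSC-derived against in vivo FGOs. Adjacent comparisons share a group of FGOs. The member furthest apart in iPSC-derived against in vivo FGOs was Cnot7, which was highest in iPSC-derived FGOs (pooled 1428 CPM, 95% interval 1423 to 1434), then in 6 dpp (1213), gonad-derived (1050) and in vivo FGOs (824). The ratio of iPSC-derived to in vivo FGOs was 0.79, or 0.64 without in vivo FGOs 5, 7, 19 and 22, and 19 of 24 iPSC-derived FGOs were above all in vivo ones. The 6 dpp FGOs ran from 923 to 1653 CPM (median 1207) and had a ratio of 0.56 to in vivo FGOs, or 0.40 without the 4 oocytes.

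Dazl was highest in 6 dpp FGOs, which ran from 1104 to 1879 CPM (median 1359). In vivo FGOs ran from 1034 to 1334 CPM (median 1111), gonad-derived FGOs from 550 to 1377 CPM (median 976) and iPSC-derived FGOs from 293 to 1300 CPM (median 972). The gonad-derived and iPSC-derived FGOs reached far lower values than the other FGOs, with 16 of 24 gonad-derived ones below all 6 dpp FGOs and 16 of 24 iPSC-derived ones below all in vivo FGOs. The ratios were -0.50 for gonad-derived against 6 dpp FGOs, 0.28 for 6 dpp against in vivo FGOs and -0.28 for iPSC-derived against in vivo FGOs.

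Ybx2 was lower in cultured than in in vivo FGOs. The 6 dpp FGOs ran from 16.1 to 37.6 CPM (median 25.1), and 22 of 24 were below the lowest in vivo FGO at 28.3 CPM. The ratio was -0.58 for 6 dpp against in vivo FGOs and -0.39 for iPSC-derived against in vivo FGOs, and it was 0.06 between gonad-derived and 6 dpp FGOs. Pooled Zar1 was higher in cultured FGOs, with ratios of 0.26 (6 dpp against in vivo) and 0.39 (iPSC-derived against in vivo), and 0.49 and 0.62 without in vivo FGOs 5, 7, 19 and 22. The oocyte ranges overlapped almost wholly, at 542 to 1562 CPM in 6 dpp, 508 to 1746 in iPSC-derived and 401 to 1905 in in vivo FGOs. Cpeb1 had ratios of -0.25 and -0.26 in the same order, Pabpc1l -0.12 and -0.25, and Eif4e1b 0.02 and 0.29. Btg4 had 0.22 and 0.08 and Cnot6l -0.05 and -0.14. Zfp36l2 had 0.51 and 0.33, and these were 0.72 and 0.54 without in vivo FGOs 5, 7, 19 and 22. The first was 0.34 without 6 dpp FGO 3, whose 17.4 CPM was well above the next of its group (6.61 CPM).

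**Figure D3:**
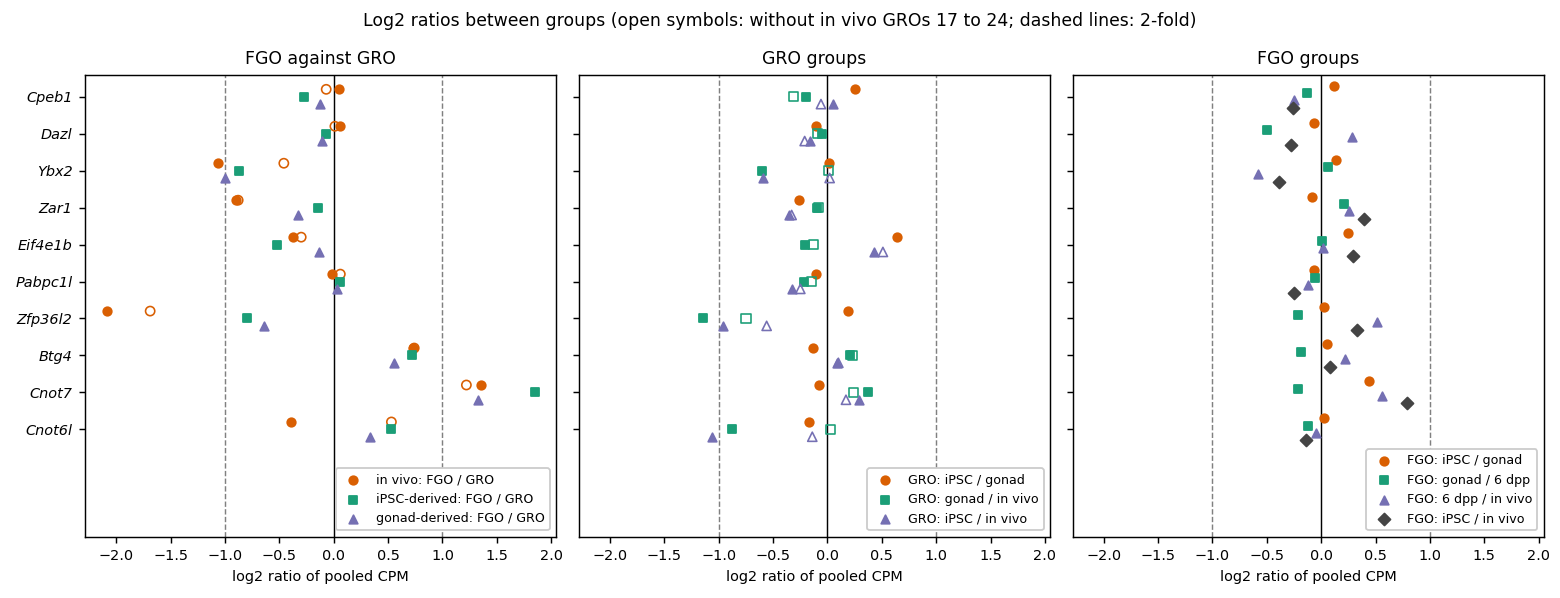
Log2 ratio of pooled CPM for each gene in 3 comparisons of stages, 3 of GRO groups and 4 of FGO groups; open symbols leave out in vivo GROs 17 to 24 and dashed lines mark 2-fold. Cnot7 lies beyond 2-fold in all 3 stage comparisons, and all ratios between FGO groups lie inside the lines.

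Each member but Dazl was set beside a relative in the same family or, for Btg4, the adaptor Tob1, as a ratio of levels per exonic length. Pabpc1l exceeded Pabpc1, the general poly(A)-binding protein, by 17.8 to 24.3-fold in GROs and by 67.8 to 125-fold in FGOs. Pabpc1 itself had pooled values of 19.0 to 24.1 CPM in GROs and 3.92 to 7.86 CPM in FGOs. Btg4 exceeded Tob1 by 19.0 to 26.3-fold in GROs and by 74.6 to 99.5-fold in FGOs. Cnot7 exceeded its close relative Cnot8 by 1.25 to 1.49-fold in GROs and by 2.39 to 3.48-fold in FGOs, and Cnot8 had 212 to 247 CPM in GROs and 282 to 336 CPM in FGOs. Cnot6l exceeded Cnot6 by 4.36 to 5.16-fold in GROs and by 6.00 to 7.43-fold in FGOs. For these 4 pairs the ratio was higher in each FGO group than in each GRO group.

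Ybx2, Cpeb1 and, by a smaller margin, Cnot6l (6.00 to 6.62 against 7.43) gave lower ratios to their relatives in cultured than in in vivo FGOs. Ybx2 exceeded Ybx1 by 5.31 to 6.75-fold in GROs, by 4.24-fold in in vivo FGOs and by 1.56 to 1.74-fold in the 3 cultured FGO groups. Cpeb1 exceeded Cpeb4 by 119 to 191-fold in GROs, by 128-fold in in vivo FGOs and by 44.5 to 55.1-fold in cultured FGOs. The in vivo GRO value of 119 was 195 without in vivo GROs 17 to 24, and no other pair's value moved by over 1.5 times without them. The Cpeb4 value was 27.5 CPM in in vivo FGOs (18.2 to 45.0 over oocytes) and 49.8 to 66.0 CPM in cultured FGOs. Zar1 exceeded Zar1l by 2.34 to 3.76-fold in GROs and had a ratio of 0.963 to 1.44 in FGOs. Eif4e1b to Eif4e was 1.74 to 2.71 in GROs and 1.17 to 1.33 in FGOs. Cnot6, like Cnot6l, was higher in in vivo GROs (pooled 32.7 CPM) than in the other groups (17.3 to 19.5 CPM). This too turned on in vivo GROs 17 to 24: the log2 ratio of Cnot6 between gonad-derived and in vivo GROs was -0.75 with them and 0.10 without, and that of in vivo FGOs to GROs was -0.90 and -0.04. Zfp36l1 had pooled values of 0.295 to 1.64 CPM, too few reads for its ratio to Zfp36l2 to be read.

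**Figure D4:**
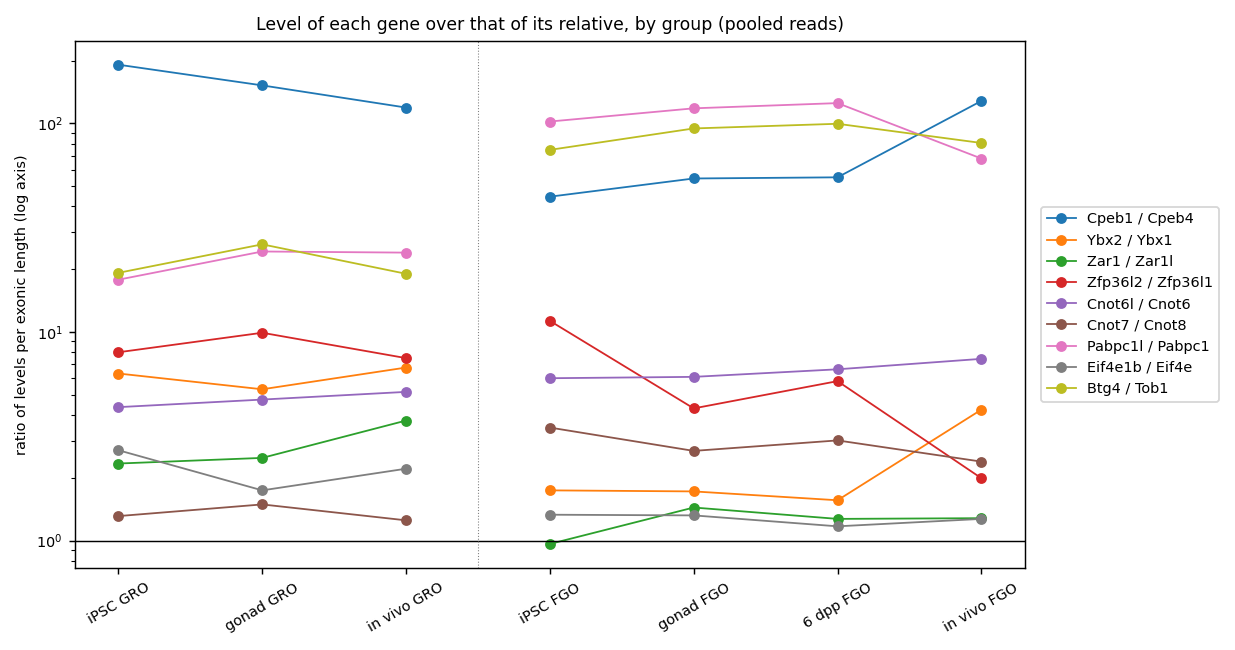
Ratio of the level per exonic length of each gene to that of its relative (log axis, pooled reads) by group; the line at 1 marks equal levels and lines join the groups of a stage to guide the eye. Pabpc1l, Btg4, Cnot7 and Cnot6l stand higher over their relatives in FGOs, and Cpeb1 and Ybx2 stand lower over theirs in the 3 cultured FGO groups.

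Of 95 other genes listed for storage and translational control, cap and tail binding, or deadenylation and decay, 92 passed the filter for growth in vivo, where 3 were called higher and 14 lower in FGOs (3 and 10 without in vivo GROs 17 to 24), beside 23.7% of all genes called apart. In iPSC-derived oocytes 4 were higher and 11 lower of 91 (22.0% of all genes), and in gonad-derived oocytes 4 higher and 9 lower of 91 (15.8%). These counts lay below or near the share of all genes. The poly(A) polymerase gene Papolg had a ratio of 1.49 in vivo, with 134 to 263 CPM in FGOs and 25.8 to 99.5 CPM in GROs. The decapping enzyme gene Dcp2 was called higher in each source, with ratios of 1.10 in vivo, 1.73 in iPSC-derived and 1.29 in gonad-derived oocytes. Its coactivator Dcp1a was called higher in both cultured sources (1.39 and 1.58), and its pooled values in vivo, 565 CPM in GROs and 1122 CPM in FGOs, fell just short of 2-fold. Cpeb4 was called higher in both cultured sources too (1.81 and 1.33). In vivo its ratio was -0.06, or 0.53 without in vivo GROs 17 to 24. Zar1l was called higher in iPSC-derived oocytes, with 670 to 991 CPM in FGOs and 271 to 550 CPM in GROs.

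The genes called lower came from all 3 lists. Ddx6, an RNA helicase of storage and decay granules, had ratios of -1.51, -1.27 and -1.64 in vivo, in iPSC-derived and in gonad-derived oocytes. Edc3, a decapping enhancer, had -1.82, -3.16 and -2.36, and Fmr1, an RNA-binding repressor of translation, had -1.48, -1.20 and -1.42. Eif4ebp1, an inhibitor of eIF4E, had -2.46, -1.70 and -1.65, and Pabpc1 had -1.45, -2.33 and -2.12. Lsm1, a subunit of a complex that activates decapping, had -1.46 in vivo and -1.52 in gonad-derived oocytes, and its pooled value in iPSC-derived oocytes was 299 CPM in GROs and 128 CPM in FGOs. The m6A reader Ythdf2 had -1.45 and -1.44 in iPSC- and gonad-derived oocytes, and 428 CPM in GROs and 197 CPM in FGOs in vivo. Without in vivo GROs 17 to 24, the in vivo ratio of Ddx6 moved from -1.51 to -1.20, that of Pabpc1 from -1.45 to -1.02, that of Fmr1 from -1.48 to -0.99 and that of Eif4ebp2 from -1.19 to -0.93.

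Between sources, 0 of 90 of these genes were called apart in iPSC-derived against gonad-derived GROs, beside 3.83% of all genes. Gonad-derived against in vivo GROs had 0 higher and 5 lower of 91 (7.04% of all genes), which became 1 and 1 without in vivo GROs 17 to 24. Ybx3, a relative of Ybx2, ran from 160 to 378 CPM in those 8 oocytes and from 30.8 to 81.7 CPM in the other in vivo GROs, and its ratio moved from -1.10 to 0.04. Ythdf1 moved likewise from -1.23 to -0.08. iPSC-derived against in vivo GROs had 3 higher and 3 lower of 91 (9.99% of all genes), and 3 and 0 without the 8. Pabpn1l, an oocyte and embryo poly(A)-binding protein gene, was among the higher ones at 1.31, with 689 to 1911 CPM in iPSC-derived and 166 to 1008 CPM in in vivo GROs. The others were Igf2bp1 (1.85), with pooled values of 5.93 and 1.28 CPM, and the scavenger decapping enzyme gene Dcps (1.03). In FGOs 2 were higher and 4 lower of 92 in iPSC-derived against in vivo oocytes (14.5% of all genes), and 1 gene was called apart in each of the other 3 comparisons (2.59% to 6.21%). Cpeb4 was higher in iPSC-derived than in in vivo FGOs (1.25) and Ythdf1 was lower (-1.06).

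The genes of most similar profile over the 7 groups were sought for the 4 members whose groups spanned at least 2-fold. Of these, Cnot6l did so only with in vivo GROs 17 to 24. The search covered 6235 genes with at least 10 pooled CPM in every group, by Pearson's r of log2(pooled CPM + 0.5). Cnot7 was most like Pramel25 (r = 0.998) and Dcp2 (0.997), and over single oocytes, where both genes share the group and the library, r was 0.797 and 0.931. Cnot6l was most like Evi5 (0.993) and Tent4b (0.987), a poly(A) polymerase gene of the storage list, and without in vivo GROs 17 to 24 these were 0.901 and 0.964. Ybx2 was most like Nudt14 (0.991) and Rpl31 (0.989), and Zfp36l2 most like Zmiz2 (0.990) and Grsf1 (0.986, or 0.848 without the 8 oocytes). With 7 points and 6235 genes searched, these values are a description only.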

How the data were processed

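Single oocytes were sequenced by Smart-seq2 with oligo-dT priming, so transcripts with short poly(A) tails may be read less, an effect not tested here. The deposited values are whole-number counts of reads for each gene that the authors had not normalized. Reads were aligned with STAR to GRCm38 with spike-in sequences, and QuasR counted uniquely mapped exonic reads of 1 transcript per gene picked at random. The deposited table also holds an exonic length, used here for TPM. Counts were summed per group and divided by the summed library (pooled CPM). Entrez identifiers gave symbols for 21907 of 21950 genes through RefSeq, and the other 43 entered the totals only. The study's selection of oocytes by diameter was not applied, and every oocyte was used. No 2 libraries were identical.

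The members and gene lists were chosen with earlier results of these data known. All 10 members are named. Other genes of the lists are named by size: per comparison, list and direction, up to 3 genes past 2-fold whose larger pooled value was 5 CPM or more; beside them, the relatives, and the 2 genes of most similar profile. Listed genes absent from the table were not analysed here. TMM factors came from edgeR 4.0.16 and size factors from DESeq2 1.42.0, in R 4.3.3. Python 3.11.15 with pandas 2.3.3, numpy 2.4.6, scipy 1.17.1 and matplotlib 3.10.9 did the rest.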

Additional observations from a re-analysis of the deposited data

How the results depend on the processing

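The alternatives were other pseudocounts (0.1 and 2 CPM), TMM scaling, DESeq2 size factors, medians or means over oocytes, no filter on low values, single oocytes left out, in vivo FGOs 5, 7, 19 and 22 left out, and gonad-derived FGOs 5 and 22 left out. Leaving out in vivo GROs 17 to 24 or gonad-derived FGO 19 was added after seeing the data. In vivo FGOs 5, 7, 19 and 22 had been scored as like GROs on the same data, so that alternative is not independent of the stage comparisons. Of the 7 member ratios at least 2-fold apart, 4 stayed so under every alternative run for them and 0 changed sign. These 4 were Cnot7 in all 3 stage comparisons and Zfp36l2 in vivo. For gonad-derived FGOs against GROs, the count of members called apart was 2 in place of 1 with a pseudocount of 0.1 CPM (20.5% of all genes, against 15.8%) and with means over oocytes (15.8%), and 1 to 2 with single oocytes left out, since Ybx2 lay at 1.99-fold. It was 2 without any 1 of FGOs 1, 6, 8, 17, 20, 23 and 24 or GROs 1, 7, 9, 16, 20 and 24. For gonad-derived against in vivo GROs it was 0 without in vivo GROs 17 to 24 (6.12% of all genes, against 7.04%). For iPSC-derived against in vivo GROs it was 0 with medians over oocytes (9.52% of all genes, against 9.99%) and without in vivo GROs 17 to 24 (8.93%). It was 0 to 1 with single oocytes left out, where leaving out any 1 of 6 of those in vivo GROs (17, 18, 20, 21, 22 or 24) brought Cnot6l under 2-fold. Ybx2 in vivo fell short of 2-fold with medians over oocytes (-0.80). The in vivo stage comparison then had 2 members called apart in place of 3, while the share of all genes was 25%, against 23.7%. TMM scaling and size factors moved the median of all genes by less than 0.1 (log2). No paired analysis was possible because the result comes from no test and no label says what oocytes of the same number share. Depth limits Zfp36l2 most, with 439 to 2348 reads per group.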
